A study of Mus musculus with 36 samples.

Results

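The CC chemokines Ccl2, Ccl3, Ccl4, Ccl5, Ccl6, Ccl7, Ccl9, Ccl12, Ccl17 and Ccl22 were examined in RNA-seq of bone marrow-derived macrophages (BMDMs), by genotype and treatment. These 10 genes were chosen by name from the 54532 genes of the count table. The BMDMs came from female C57BL/6 mice, 13 to 17 weeks old by the study's methods, and were grown for 7 days with MCSF. All mice carried floxed alleles of Bmal1. WT macrophages were Bmal1 flox/flox (n = 3 a group), and KO macrophages were LysM-Cre;Bmal1 flox/flox littermates (n = 6 a group), in which the myeloid LysM promoter drives Cre. Each genotype received DMSO vehicle, 100 µM CCM, 100 nM LPS, or LPS together with CCM for 6 h, which gave 36 libraries. CCM (Core Circadian Modulator) is a small molecule that binds the PASB domain of BMAL1, and LPS is a bacterial cell wall component that activates macrophages through the receptor TLR4. The question addressed was whether CCM alters macrophage gene expression with and without LPS, and whether it does so when Bmal1 is deleted.

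CC chemokines are small secreted proteins that guide leukocytes by binding G protein-coupled receptors. Macrophages that meet bacterial products transcribe many of them within hours, largely through NF-κB and interferon regulatory factors, and the products recruit monocytes, T cells and other leukocytes. Ccl2, Ccl7 and Ccl12 are ligands of CCR2, the receptor by which inflammatory monocytes leave the bone marrow. Ccl3, Ccl4 and Ccl5 are inflammatory chemokines that attract T cells and monocytes, and Ccl3 and Ccl5 bind CCR1. Ccl6 and Ccl9 are rodent chemokines that also act on CCR1, and Ccl17 and Ccl22 bind CCR4 on T cells. BMAL1 acts with CLOCK as a transcription factor on E-box sequences.

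Ccl17 and Ccl22 lie on chromosome 8 and the others on chromosome 11 (mm10), in 2 runs. Ccl2 (ENSMUSG00000035385, 82035571 to 82037453), Ccl7 (ENSMUSG00000035373, 82045712 to 82047525) and Ccl12 (ENSMUSG00000035352, 82101845 to 82103400) lie on the plus strand within 67.8 kb, with Ccl11 as the other coding gene between them. Farther along, Ccl5 (ENSMUSG00000035042, 83525778 to 83530518), Ccl9 (ENSMUSG00000019122, 83572919 to 83578636), Ccl6 (ENSMUSG00000018927, 83587882 to 83593087) and Ccl3 (ENSMUSG00000000982, 83647844 to 83649355) lie on the minus strand. Ccl4 (ENSMUSG00000018930, 83662584 to 83664683) ends this run on the plus strand. Ccl22 (ENSMUSG00000031779, 94745590 to 94751699) and Ccl17 (ENSMUSG00000031780, 94810453 to 94812036) lie on chromosome 8 within 66.4 kb, on either side of Cx3cl1. Ccl2 and Ccl6 each overlap a gene on the other strand, Gm17268 and E230016K23Rik, which had at most 1 and 12 counts in any library. Whether the counting used strand is not stated, so that reads of such genes cannot be told apart.

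RefSeq start-site sequence (build GRCm38.p6) was read for Ccl3, Ccl6, Ccl9, Ccl12, Ccl17 and Ccl22. The 250 bases before the start are shown for 4 of them. Ccl9 and Ccl6 are neighbours that moved in opposite directions with LPS in WT macrophages, and Ccl3 and Ccl12 were lower with CCM under LPS. Capitals mark matches, on either strand, to NF-κB, AP-1 (TGANTCA), ISRE, E-box (CACGTG) or TATA box (TATAAA) letters, where overlapping matches run together.
Ccl9, chr11:83578637-83578886, minus strand: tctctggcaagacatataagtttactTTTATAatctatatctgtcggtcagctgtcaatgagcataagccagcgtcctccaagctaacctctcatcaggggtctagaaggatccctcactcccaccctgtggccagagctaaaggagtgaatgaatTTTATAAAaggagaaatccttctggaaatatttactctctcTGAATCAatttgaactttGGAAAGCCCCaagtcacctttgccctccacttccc
Ccl6, chr11:83593088-83593337, minus strand: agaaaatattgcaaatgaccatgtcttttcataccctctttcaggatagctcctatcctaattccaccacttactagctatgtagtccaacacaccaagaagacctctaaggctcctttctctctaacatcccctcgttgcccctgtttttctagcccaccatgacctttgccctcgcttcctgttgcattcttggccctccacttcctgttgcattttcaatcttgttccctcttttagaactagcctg
Ccl3, chr11:83649379-83649628, minus strand: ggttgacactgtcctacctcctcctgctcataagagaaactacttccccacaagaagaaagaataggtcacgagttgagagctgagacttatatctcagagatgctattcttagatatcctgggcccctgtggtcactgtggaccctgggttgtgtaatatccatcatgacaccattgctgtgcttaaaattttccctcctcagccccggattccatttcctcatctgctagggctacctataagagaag
Ccl12, chr11:82101595-82101844, plus strand: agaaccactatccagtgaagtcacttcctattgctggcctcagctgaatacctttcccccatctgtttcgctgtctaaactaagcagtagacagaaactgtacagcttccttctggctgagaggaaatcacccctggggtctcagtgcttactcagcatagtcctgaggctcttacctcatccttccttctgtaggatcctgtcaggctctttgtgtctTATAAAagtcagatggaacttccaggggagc
An NF-κB match stood in 1 of the 6 windows (Ccl9), against 3.90% of 32851 promoter windows of the same length in the table. AP-1 letters also stood in the Ccl9 window alone of the 6, against 6.75% of all windows. The E-box letters stood in 0 of the 6 windows, against 6.02% of all, and the ISRE match in 0, against 2.98%. TATA box letters stood in 2 of 6 (Ccl9 and Ccl12), against 12.4%. A match is a stretch of letters and was not tested for binding.

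The libraries held 13469262 to 28288923 read pairs on genes. Macrophage markers summed to 11546 to 23219 CPM in every library, where CPM is the count scaled by library total and TMM factor. With vehicle they summed to 16564 to 19383 CPM in WT and 11546 to 17825 CPM in KO libraries (medians 17798 and 13179). With LPS the medians were 18750 and 14395 CPM. Of the 8 markers, which include Lyz2, 0 passed between genotypes with vehicle or under LPS, where 0% of all genes passed. Some marker sums moved with treatment in WT. Dendritic cell markers went from 805 to 906 CPM with vehicle to 1417 to 1497 CPM with LPS. With LPS+CCM they summed to 1291 to 1328 CPM. T and NK cell markers went from 24.5 to 28.1 CPM with vehicle to 12.0 to 17.2 CPM with LPS. Mast cell and basophil markers went from 26.8 to 31.2 CPM with vehicle to 17.0 to 19.8 CPM with CCM. Of 5 of these tested with CCM alone, 0 passed. The sums hide genes that moved apart. With LPS in WT 6 dendritic cell markers were tested, and 3 passed as higher, Ccr7 among them, and 2 as lower. Of 6 neutrophil markers tested 1 passed as higher and 5 as lower. Only 1 T and NK cell marker was tested, and it passed as lower. Of 8 macrophage markers 3 passed as higher and 4 as lower. Over all genes tested 30.6% passed as higher and 32.4% as lower. With CCM under LPS in WT 1 of 8 macrophage markers passed as higher and 2 as lower. In that comparison 1 of 5 neutrophil and 1 of 5 mast cell and basophil markers passed as lower. Over all genes tested there, 4.15% passed as higher and 7.78% as lower. Over all libraries neutrophil markers summed to 257 to 880 CPM, fibroblast markers to 302 to 1660 CPM, mast cell and basophil markers to 15.7 to 53.9 CPM with Mcpt4 at 0, and B cell markers to at most 2.85 CPM. KO replicate 6 stood apart: its neutrophil markers summed to 851 to 880 CPM in the 4 treatments, against at most 742 CPM in any other library, and their part in the results was not tested. Values without this replicate are given where it decides them. Counts of Bmal1 (Arntl) over the whole gene ranged from 7.52 to 12.9 CPM in WT and from 2.02 to 10.8 CPM in KO libraries. They include exons outside the floxed segment and do not check the deletion.

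In WT macrophages the 10 chemokines together took 0.0585 to 0.0742% of counted read pairs with vehicle and 0.849 to 0.920% with LPS. In KO macrophages the shares were 0.0509 to 0.0717% and 0.805 to 1.24%, the latter at most 0.936% without replicate 6. With vehicle, the most abundant per length in WT were Ccl9 at 102 ± 12.8 CPM per kb of exon (SD, n = 3), Ccl6 at 90.0 ± 14.8 and Ccl3 at 71.4 ± 7.67, whose ranges overlapped from one to the next. Ccl4 at 29.4 ± 8.85, Ccl2 at 14.8 ± 2.87, Ccl7 at 6.14 ± 1.09 and Ccl5 at 2.92 ± 0.256 CPM per kb followed, each without overlap with the next. Ccl12 (0.586 ± 0.313), Ccl22 (0.560 ± 0.246) and Ccl17 (0.221 ± 0.135) were lowest. With LPS the order changed. Ccl5 led at 4222 ± 205 CPM per kb, and Ccl3 at 2884 ± 285, Ccl4 at 1123 ± 61.6 and Ccl9 at 791 ± 55.2 followed, none overlapping its neighbour. Ccl2 (257 ± 37.5) and Ccl7 (99.0 ± 11.2) came next. Ccl6 (54.3 ± 11.3), Ccl22 (49.9 ± 1.06) and Ccl12 (42.4 ± 7.56) did not separate from one to the next, and Ccl17 was last at 5.22 ± 1.63 CPM per kb. The plot of level per length shows Ccl5 moving from the lower part of this order to its top.

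**Figure D1:**
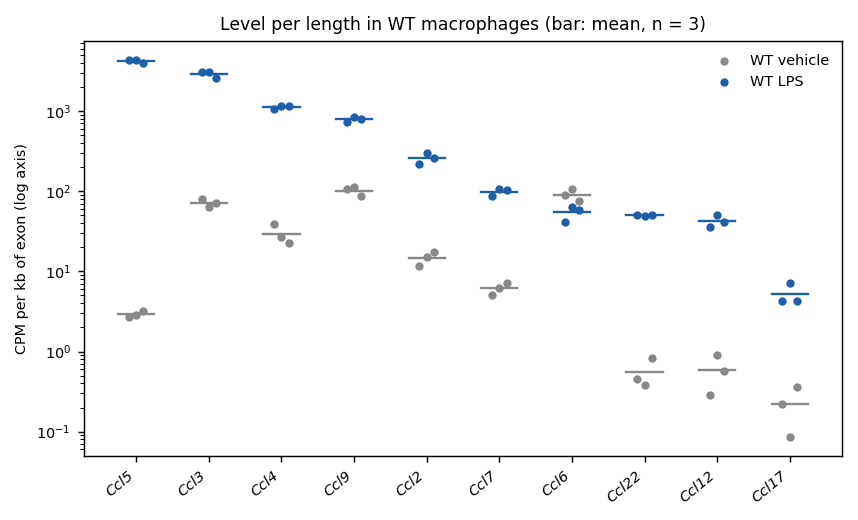
Level per length (CPM per kb of exon, log axis) of the 10 chemokines in WT macrophages with vehicle (grey) and LPS (blue), 1 point a library and a bar at the mean of 3. Ccl5 went from 2.92 to 4222 CPM per kb, and Ccl6 is the gene whose LPS points lie below its vehicle points.

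LPS raised 9 of the 10 chemokines in WT macrophages and lowered Ccl6. By edgeR's quasi-likelihood test 10 of 10 passed an adjusted p of 0.05, in a comparison in which 63% of the genes tested passed in either direction, 30.6% as higher and 32.4% as lower. Ccl12 and Ccl17 had too few counts for the filter in every comparison without LPS libraries. They entered this test through the high LPS group, so that their calls as higher were close to fixed in advance. Both also passed with no filter on low counts. The members' median log2 fold change was 4.87, against -0.05 over all genes tested. The bulk samples cannot tell fewer expressing cells from less RNA per cell.

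Ccl5 (also known as RANTES) had the steepest rise. Its WT levels were 2.62, 2.71 and 3.08 CPM with vehicle and 4201, 4129 and 3830 CPM with LPS, a log2 fold change of 10.5 (95% CI 10.3 to 10.7, edgeR adjusted p = 8.31e-12). The groups were far apart, and the spread between replicates was small beside the change. In KO macrophages the vehicle libraries ranged from 1.59 to 27.1 CPM with a median of 4.44, and the LPS libraries from 3671 to 7631 CPM with a median of 3997, a log2 fold change of 9.14 (95% CI 7.42 to 10.9). The highest vehicle value came from replicate 2 and the highest LPS value from replicate 6. Without replicate 2 the log2 fold change was 10.1.

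Ccl3 and Ccl4 rose by similar factors. Ccl3 had 60.4, 48.7 and 55.0 CPM in WT vehicle libraries and 2326, 2344 and 1957 CPM with LPS, a 41.2-fold rise (edgeR adjusted p = 7.52e-11). Ccl4 had 25.9, 17.5 and 14.7 CPM with vehicle and 695, 756 and 772 CPM with LPS, a 39.2-fold rise (edgeR adjusted p = 2.67e-09). These neighbours, 13.2 kb apart, kept a similar ratio per length: Ccl3 stood at 2.54 ± 0.62 times Ccl4 with vehicle and 2.58 ± 0.359 times with LPS within the same library (SD, n = 3). In KO macrophages Ccl3 rose 35.0-fold and Ccl4 39.7-fold.

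The CCR2 ligands rose from lower levels. Ccl2 had 13.4, 17.4 and 19.8 CPM in WT vehicle libraries and 250, 336 and 293 CPM with LPS, a 17.6-fold rise (edgeR adjusted p = 7.52e-09). Ccl7 had 4.02, 4.97 and 5.77 CPM with vehicle and 69.1, 85.8 and 83.1 CPM with LPS, a 16.3-fold rise. Ccl12 had only 4, 11 and 10 counts in the vehicle libraries and reached 19.1, 27.1 and 22.0 CPM with LPS, a 74.4-fold rise (log2 6.22, 95% CI 5.62 to 6.82). The KO rises were 17.4-fold for Ccl2, 15.2-fold for Ccl7 and 121-fold for Ccl12, the last against 2 to 9 counts a vehicle library.

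Ccl22 and Ccl17, both ligands of CCR4, had few counts with vehicle. Ccl22 had 28, 20 and 64 counts in WT vehicle libraries, or 1.06, 0.887 and 1.95 CPM, and 118, 113 and 117 CPM with LPS, an 86.8-fold rise (edgeR adjusted p = 6.48e-10). The 3 LPS libraries agreed closely. Ccl17 had 3, 1 and 6 counts with vehicle and rose to 2.19, 3.65 and 2.21 CPM (log2 4.45, 95% CI 3.45 to 5.44), so that it remained under Ccl22 by 10.2 ± 2.85 times per length with LPS. In KO macrophages the log2 fold changes were 6.36 for Ccl22 and 5.18 for Ccl17, whose vehicle counts were 0 in 3 of 6 libraries.

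The rodent CCR1 ligands Ccl9 and Ccl6 parted. Ccl9 had 320, 344 and 267 CPM in WT vehicle libraries and 2226, 2558 and 2438 CPM with LPS, a 7.92-fold rise (edgeR adjusted p = 2.99e-09). Ccl6, 9.24 kb away on the same strand, had 159, 190 and 137 CPM with vehicle and 74.4, 112 and 105 CPM with LPS, a log2 fold change of -0.70 (95% CI -1.05 to -0.35, edgeR adjusted p = 0.00284). All 3 LPS libraries lay below all 3 vehicle libraries. Within the same library, Ccl9 per length went from 1.14 ± 0.0623 times Ccl6 with vehicle to 14.9 ± 2.37 times with LPS, a ratio that does not depend on the scaling between libraries. With all 36 libraries in 1 fit the Ccl6 difference kept its direction and did not pass the test.

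In KO macrophages 9 of 10 chemokines passed the LPS test, all higher, where 47.1% of the genes tested passed, 22.4% as higher and 24.7% as lower. The vehicle and LPS ranges of these 9 did not overlap, and the share of all genes without overlap was not counted. Among the 9, Ccl12 and Ccl17 again entered the test through the high LPS group alone. Ccl6 had 94.4 to 262 CPM with vehicle (median 149) and 62.7 to 206 CPM with LPS (median 104), lower with LPS in 6 of 6 same-numbered pairs. Its log2 fold change of -0.48 did not pass (edgeR adjusted p = 0.232), and the share of all genes lower in every pair was not counted. Same-numbered KO libraries deviated together, and when the replicate number entered as a block Ccl6 passed at -0.51. Without KO replicate 6, which held the highest Ccl6 value in both groups, it passed at -0.55.

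**Figure D2:**
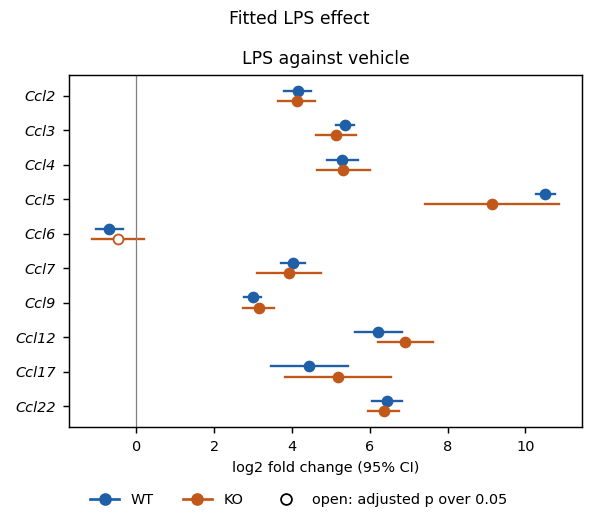
Fitted log2 fold change of each chemokine with LPS against vehicle, with 95% confidence intervals, in WT (blue) and KO (orange) macrophages, where open points have an adjusted p over 0.05. Ccl5 lies farthest right at 10.5 in WT, Ccl6 lies left of 0 in both genotypes, and the WT and KO intervals overlap for each gene.

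Under LPS, CCM lowered 7 of the 10 chemokines in WT macrophages. In this comparison 11.9% of the genes tested passed, 7.78% as lower and 4.15% as higher. The members' median log2 fold change was -0.62, against 0.01 over all genes tested. The CCR2 ligands Ccl12, Ccl7 and Ccl2 and the CCR1 ligand Ccl3 fell to 48.3 to 56.2% of their LPS level, Ccl22 and Ccl4 to 63.2 and 67.0%, and Ccl5 to 87.2%. Ccl9, Ccl17 and Ccl6 did not pass. The same 3 WT LPS libraries serve in this comparison and in that of LPS with vehicle, so the effects are set side by side without a correlation. For the 7 that passed, the 3 LPS+CCM libraries lay below the 3 LPS libraries. The test used these same libraries, and the share of all genes so separated was not counted.

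Ccl2 went from 250, 336 and 293 CPM with LPS to 143, 184 and 165 CPM with LPS+CCM, a log2 fold change of -0.83 (SE 0.106, edgeR adjusted p = 0.00066). Ccl7 went from 69.1, 85.8 and 83.1 to 36.2, 47.9 and 40.6 CPM, a log2 fold change of -0.93 (SE 0.104, edgeR adjusted p = 0.000306). Ccl12 went from 19.1, 27.1 and 22.0 to 9.95, 12.2 and 10.7 CPM, a log2 fold change of -1.05 (SE 0.131, edgeR adjusted p = 0.000571). These 3 ligands of the same receptor had overlapping 95% intervals, of 47.8 to 66.2, 44.8 to 61.8 and 39.5 to 59.1% of the LPS level remaining. Per length, Ccl2 stood at 2.59 ± 0.143 times Ccl7 with LPS and 2.78 ± 0.0822 times with LPS+CCM.

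Ccl3 went from 2326, 2344 and 1957 CPM with LPS to 1336, 1264 and 1067 CPM with LPS+CCM, a log2 fold change of -0.85 (SE 0.0901, edgeR adjusted p = 0.000223). Ccl4 went from 695, 756 and 772 to 510, 490 and 483 CPM, a log2 fold change of -0.58 (SE 0.0495, edgeR adjusted p = 7.48e-05). Ccl5 had 4201, 4129 and 3830 CPM with LPS and 3689, 3365 and 3497 CPM with LPS+CCM, a log2 fold change of -0.20 (SE 0.0524, edgeR adjusted p = 0.0359). The Ccl5 groups did not overlap, yet the change was small, and it did not pass with total counts as the only scaling or without any 1 of WT LPS replicates 1 and 2 and WT LPS+CCM replicates 2 and 3. Within a library, Ccl3 per length fell from 0.682 ± 0.0371 to 0.436 ± 0.0469 times Ccl5, with ranges that did not overlap. Ccl5 stayed the most abundant of the 10 per length, at 3663 ± 169 CPM per kb against 1595 ± 182 for Ccl3.

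Ccl22 went from 118, 113 and 117 CPM with LPS to 69.8, 69.8 and 78.9 CPM with LPS+CCM, a log2 fold change of -0.66 (SE 0.0592, edgeR adjusted p = 9.63e-05). Ccl17 had 2.19, 3.65 and 2.21 CPM with LPS and 1.3, 2.57 and 2.76 CPM with LPS+CCM. Its groups overlapped, and its interval of 51.4 to 134% of the LPS level holds both a loss like that of Ccl22 and a gain. Ccl9 had 2226, 2558 and 2438 CPM with LPS and 2037, 2357 and 2117 CPM with LPS+CCM, lower in 3 of 3 same-numbered pairs, with an interval of 82.2 to 99.9% of the LPS level (edgeR adjusted p = 0.192). Ccl6 had 74.4, 112 and 105 CPM with LPS and 86.8, 117 and 116 CPM with LPS+CCM, higher in 3 of 3 pairs (log2 0.13, edgeR adjusted p = 0.625). How many of all genes moved one way in every pair was not counted.

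Same-numbered WT libraries deviated together in this comparison. With the replicate number as a block the 7 calls held, and Ccl9 (log2 -0.14, edgeR adjusted p = 0.000801) and Ccl6 (log2 0.14, edgeR adjusted p = 0.0266) also passed, in opposite directions, among 3220 genes in all against 1621 without the block. With all 36 libraries in 1 fit, WT and KO libraries share 1 estimate of the spread for each gene. In that fit 0 of 10 chemokines passed, where 17 of 15720 genes did, so that the 0 says nothing particular of the chemokines. The fold changes ran from -1.05 for Ccl12 to 0.14 for Ccl6 on the log2 scale. At an unadjusted p under 0.05 in that fit were Ccl2, Ccl3, Ccl12 and Ccl22, and the share of all genes at that level was not counted.

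**Figure D3:**
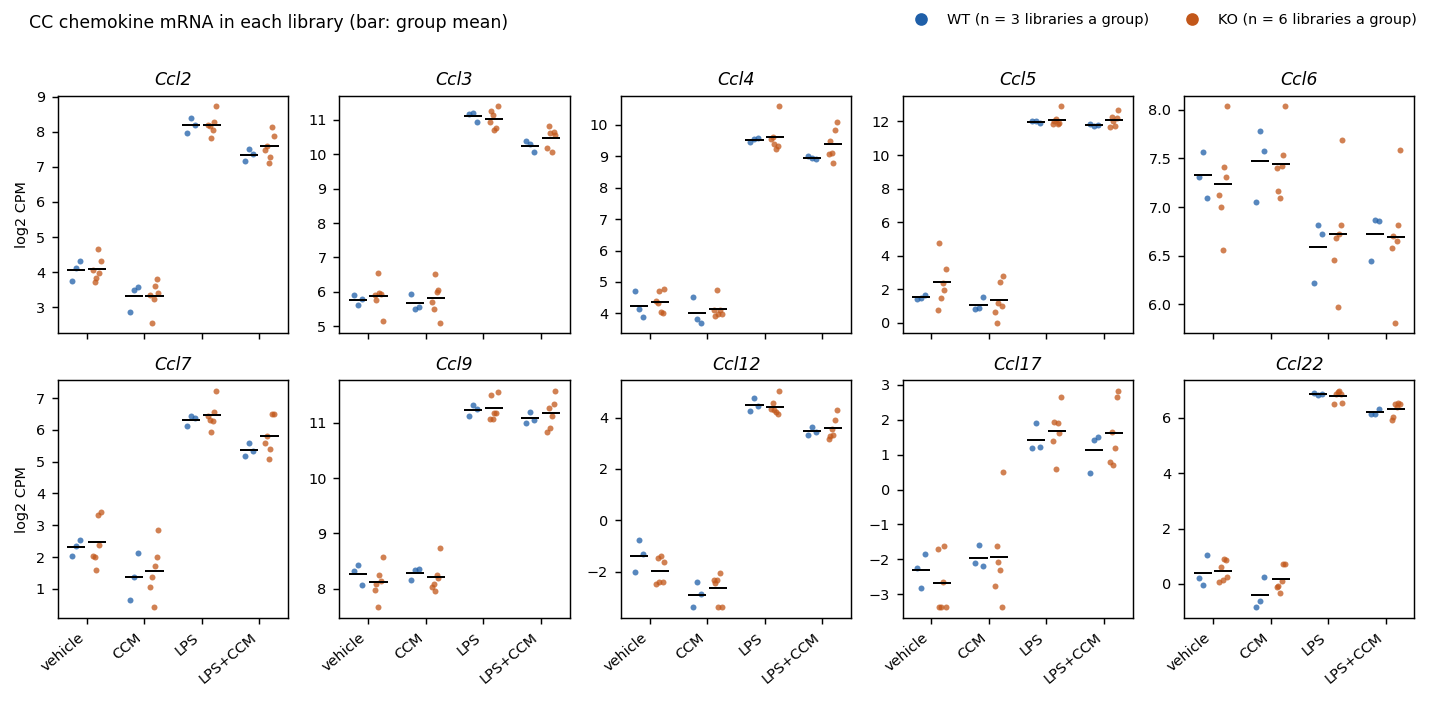
Level of each chemokine in all 36 libraries (log2 CPM with a prior count of 2, a separate y axis for each gene) by treatment, WT in blue and KO in orange, 1 point a library and a bar at the group mean. For Ccl2, Ccl3, Ccl4, Ccl7, Ccl12 and Ccl22 the WT LPS+CCM points lie below the WT LPS points and above the vehicle points, while for Ccl6 the WT LPS points lie below the WT vehicle points and the KO groups overlap.

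In KO macrophages under LPS, 0 of 10 chemokines passed the test of CCM, in a comparison in which 15 genes, 0.112% of those tested, passed, 0.105% as lower and 0.00747% as higher. The number of genes was 170 without KO replicate 6 and 0 without replicate 1 or replicate 2. DESeq2 passed 200 genes, and 1 of the 10 chemokines, Ccl12. An unadjusted p under 0.05 was found for 1070 genes, and Ccl2, Ccl3, Ccl7, Ccl12 and Ccl22 were among them. The fitted changes had the same sign as in WT for 8 of the 10, and the share of all genes with the same sign was not counted. Their median was -0.37 over the members against 0.00 over all genes tested. Ccl12 had 17.7 to 32.4 CPM with LPS (median 19.7) and 8.94 to 19.5 CPM with LPS+CCM (median 10.8), a log2 fold change of -0.85 (SE 0.231, edgeR adjusted p = 0.216). The ranges overlapped through replicate 6, the highest in both groups. Ccl12 was lower in 6 of 6 same-numbered pairs, and the share of all genes lower in every pair was not counted. Without KO replicate 6, Ccl12 passed at -0.85.

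Ccl2 had 224 to 422 CPM with LPS (median 289) and 138 to 282 CPM with LPS+CCM (median 186), a log2 fold change of -0.64 (SE 0.198, edgeR adjusted p = 0.317). Ccl7 had 61.1 to 148 CPM (median 83.6) and 33.5 to 89.6 CPM (median 51.8), a log2 fold change of -0.65 (SE 0.28, edgeR adjusted p = 0.564). Ccl3 had 1685 to 2686 CPM (median 2102) and 1067 to 1797 CPM (median 1533), a log2 fold change of -0.58 (SE 0.171, edgeR adjusted p = 0.275). Ccl22 had 90.8 to 124 CPM (median 115) and 60.4 to 93.1 CPM (median 86.4), a log2 fold change of -0.48 (SE 0.143, edgeR adjusted p = 0.29). In each of these 4 genes the groups overlapped, and the LPS+CCM library was the lower one in 6 of 6 same-numbered pairs. How many of all genes were lower in every pair was not counted. Not all same-numbered libraries deviated together in this comparison (correlations from -0.1 to 0.81).

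Ccl4 had 597 to 1539 CPM with LPS (median 704) and 440 to 1093 CPM with LPS+CCM (median 633), lower in 5 of 6 pairs. Ccl5 had 3671 to 7631 CPM (median 3997) and 3300 to 6628 CPM (median 4480), lower in 4 of 6 pairs. Ccl9, Ccl6 and Ccl17 were lower in 4, 3 and 3 of 6 pairs. KO replicate 5 gave the highest LPS+CCM to LPS percentage for 8 of the 10 genes, such as 90.1% for Ccl2, 142% for Ccl4 and 210% for Ccl17, and 5 of its 10 percentages were under 100. The LPS+CCM library of this replicate also stood apart in marker sums, with 654 CPM of neutrophil markers against 288 to 487 CPM in replicates 1 to 4 and 716 CPM of dendritic cell markers against 1023 to 1266 CPM in the 5 others. The part of these cells in its chemokine values was not tested. Over all 6 KO pairs Ccl2 kept 55.8 to 90.1% of its LPS level, beside 54.7 to 57.0% in the 3 WT pairs.

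The difference between genotypes in the CCM effect under LPS was tested as an interaction, and 0 of 10 chemokines passed, as did 0% of all genes (72 of 14546 genes had an unadjusted p under 0.05, and DESeq2 also called 0). For Ccl3 the KO effect minus the WT effect was 0.28 on the log2 scale (95% CI -0.26 to 0.83). For Ccl2 it was 0.21 (95% CI -0.44 to 0.86), for Ccl12 0.22 (95% CI -0.53 to 0.97) and for Ccl22 0.20 (95% CI -0.24 to 0.64). These intervals hold 0 and also a complete loss of the WT effect for Ccl2 and a partial one for Ccl3, Ccl12 and Ccl22, so that the design shows neither a difference between genotypes nor its absence. The biological coefficient of variation was 0.078 for the WT and 0.315 for the KO comparison of CCM under LPS.

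Without LPS, 0 of the 8 chemokines tested passed between CCM and vehicle in WT macrophages, where 8 genes, 0.057% of those tested, passed (0.0499% as higher and 0.00713% as lower) and 1404 had an unadjusted p under 0.05. Ccl12 and Ccl17 had too few counts for the filter. Ccl2 was 13.4, 17.4 and 19.8 CPM with vehicle and 7.22, 11.2 and 12.0 CPM with CCM, groups that did not overlap. Its log2 fold change was -0.72 (95% CI -1.19 to -0.26, unadjusted p = 0.00653, edgeR adjusted p = 0.269). DESeq2 and the fit with no filter on low counts each passed Ccl2, among 241 and 377 genes passed in all. Ccl7 was 4.02, 4.97 and 5.77 CPM with vehicle and 1.47, 2.47 and 4.26 CPM with CCM, a log2 fold change of -0.83 (95% CI -1.59 to -0.06, edgeR adjusted p = 0.466). Ccl12 had 4, 11 and 10 counts with vehicle and 0, 2 and 1 with CCM, too few for a fold change of use. Ccl3 differed little, with 60.4, 48.7 and 55.0 CPM against 61.7, 44.8 and 47.0 CPM and an interval of 78.4 to 113% of the vehicle level, as did Ccl9 with an interval of 87.3 to 118%.

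In unstimulated KO macrophages 0 of 8 passed, where 0% of genes passed, 333 had an unadjusted p under 0.05 and DESeq2 called 42 genes and 0 of the chemokines. Ccl2 had 13.2 to 25.4 CPM with vehicle (median 16.1) and 5.83 to 13.9 CPM with CCM (median 10.3), lower in 6 of 6 same-numbered pairs. Its log2 fold change was -0.76 (95% CI -1.24 to -0.29, unadjusted p = 0.00442, edgeR adjusted p = 1). Ccl7 had 2.92 to 10.7 CPM (median 4.59) and 1.24 to 7.10 CPM (median 2.84), also lower in 6 of 6 pairs, with a log2 fold change of -0.87. How many of all genes were lower in every pair was not counted. Same-numbered KO libraries deviated together here, and when the replicate number entered as a block both Ccl2 (log2 -0.77, edgeR adjusted p = 0.00447) and Ccl7 (log2 -0.90, edgeR adjusted p = 0.0141) passed, among 429 genes in all. Ccl5 had 1.59 to 27.1 CPM with vehicle (median 4.44) and 0.910 to 6.89 CPM with CCM (median 2.03). Its log2 fold change of -1.39 did not pass in any alternative fit, and without KO replicate 2, whose vehicle library held the highest value, it was -0.32.

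**Figure D4:**
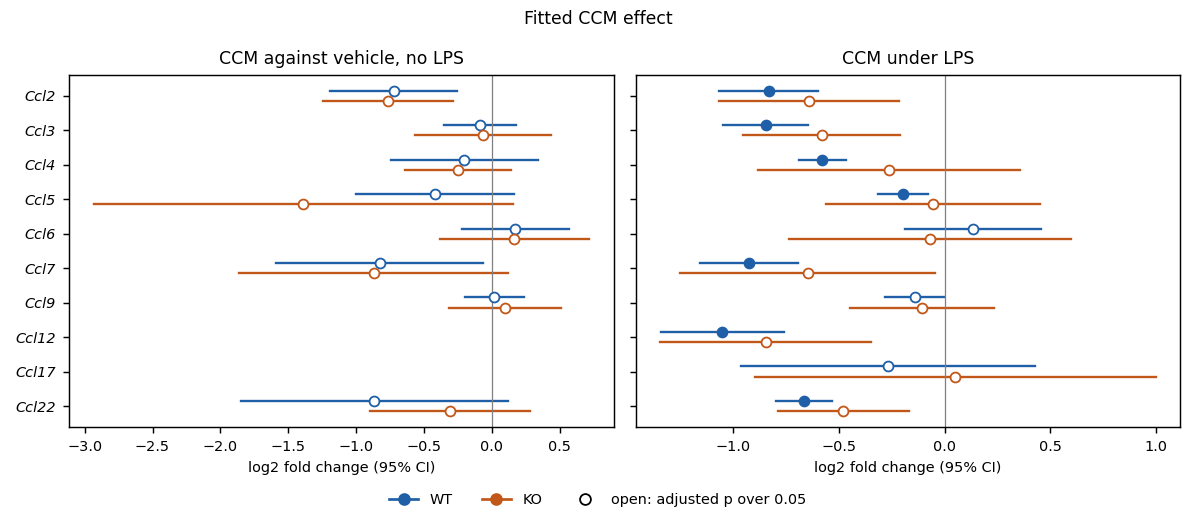
Fitted log2 fold change with CCM, with 95% confidence intervals, without LPS (left) and under LPS (right), in WT (blue) and KO (orange) macrophages, where open points have an adjusted p over 0.05 and Ccl12 and Ccl17 are not shown on the left because they were filtered out. The filled points are 7 WT genes under LPS, Ccl3 lies near 0 on the left and at -0.85 on the right, and the KO intervals are wider than the WT ones for most genes.

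Whether CCM acted differently with and without LPS was tested as an interaction. In WT macrophages Ccl3 passed, with a CCM effect lower by 0.78 on the log2 scale under LPS than without it (95% CI -1.14 to -0.41, edgeR adjusted p = 0.031), where 2.09% of genes passed, 1.62% as lower and 0.468% as higher. This call was lost in the fit of all 36 libraries and without any 1 of WT vehicle replicate 2, WT CCM replicate 1, WT LPS replicates 1 and 2 and WT LPS+CCM replicates 2 and 3, with values from -0.81 to -0.62. For Ccl2 the difference was -0.12 (95% CI -0.64 to 0.40) and for Ccl7 -0.12 (95% CI -0.82 to 0.58), which did not pass. In KO macrophages 0 of 10 passed, where 1 gene, 0.00685% of those tested, passed and DESeq2 also passed 0 of the 10. The KO value for Ccl3 was -0.50 (95% CI -1.11 to 0.12).

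Between genotypes, 0 of 8 chemokines passed with vehicle and 0 of 10 under LPS, in comparisons where 0% of genes passed (118 and 105 genes had an unadjusted p under 0.05, and DESeq2 also called 0 of the chemokines). Under LPS the WT and KO ranges overlapped for each gene, and the narrowest interval was that of Ccl22, whose KO level was 96.2% of WT (log2 -0.06, 95% CI -0.33 to 0.22). Ccl2 in KO was at 1.05 times the WT level (log2 0.07, 95% CI -0.37 to 0.50) and Ccl5 at 1.16 times (log2 0.21, 95% CI -0.34 to 0.76). With vehicle the largest difference was that of Ccl5, 1.59 on the log2 scale (95% CI -0.27 to 3.45, edgeR unadjusted p = 0.0862). KO replicate 2 held 607 counts of Ccl5 against 38 to 158 in the other KO libraries. Over the alternative fits, this difference ran from 0.72 to 1.81 and did not pass in any. The LPS effect itself did not differ between genotypes by the test for any of the 10 (0% of genes passed, 112 at an unadjusted p under 0.05, and DESeq2 also called 0).

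Of 14 receptors of CC chemokines, 7 had enough counts to be tested. With LPS in WT 3 passed as higher and 2 as lower, where 63% of all genes tested passed in either direction. Ccr1, the receptor of Ccl3, Ccl5, Ccl6 and Ccl9, had 86.8 ± 8.31 CPM in WT vehicle libraries (SD, n = 3) and 78.2 ± 16.6 CPM with LPS, which did not pass (edgeR adjusted p = 0.482). Ccr2, the receptor of Ccl2, Ccl7 and Ccl12, had 29.6 ± 3.14 CPM with vehicle and 3.08 ± 0.655 CPM with LPS, a log2 fold change of -3.22 (edgeR adjusted p = 4.41e-08), opposite to its ligands. Ccr3 fell by 0.73 on the log2 scale, and Ccr7, Ccr9 and Ccrl2 rose by 2.87, 2.59 and 4.66. Ccrl2, an atypical receptor that binds the chemoattractant chemerin, was the 1 receptor of 7 tested that passed with CCM under LPS in WT. In that comparison 11.9% of all genes tested passed, so that the count says nothing particular of the receptors. Ccrl2 went from 477, 433 and 428 CPM with LPS to 265, 218 and 222 CPM with LPS+CCM, a log2 fold change of -0.92 (edgeR adjusted p = 7.37e-05). Of 11 other CC chemokine genes, 5 were tested with LPS in WT and 4 passed, beside 63% of all genes tested. Ccl20, Ccl8 and Ccl24 rose from at most 0.133 CPM and entered the test through the LPS group. Ccl27a, a gene with near-identical copies, fell. With CCM under LPS 3 were tested and 0 passed, where 11.9% of all genes tested did.

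Of 22 transcription factors and inhibitors of chemokine induction, chosen with earlier results known, 22 were tested for CCM under LPS in WT, and 10 were lower and 3 higher, beside 7.78% and 4.15% of all genes tested. In the fit of all 36 libraries 17 of 15720 genes passed. Among the lower ones were Irf1 (log2 -0.82), Irf7 (-0.45), the NF-κB subunit genes Nfkb2 (-0.41), Rel (-0.40) and Nfkb1 (-0.29), Stat2 (-0.32), and Nfkbiz (-0.36), Tnfaip3 (-0.32) and Nfkbib (-0.27), which encode regulators of NF-κB. Irf1 had 224 to 259 CPM over the 3 LPS libraries and 157, 136 and 117 CPM with LPS+CCM, so that the groups did not overlap. The higher ones were Jun (0.49), Fos (0.40) and Stat6 (0.23). Of 6 regulators of mRNA decay, such as Zc3h12a, 0 passed. In KO macrophages 0 of the 22 factors and 0 of the 6 decay regulators passed, where 0.112% of all genes did, so that the counts say nothing particular of these lists.

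Across the 36 libraries, the genes whose log2 CPM followed a chemokine most closely among 8518 genes of at least 10 CPM were Tnf and Tlr2 for Ccl3 (Pearson r = 0.997 and 0.994), Il1b and Isg15 for Ccl5 (0.997 and 0.996), and Mapkapk2 and Milr1 for Ccl4 (0.994 and 0.994). For Ccl2 they were Marcksl1 and Ifit3 (0.990 and 0.989), for Ccl7 Il2rg and Cycs (0.981 and 0.981), and for Ccl12 Phf11b and Ifi47 (0.991 and 0.989). Marcksl1 and Adora2a followed Ccl22 (0.996 and 0.995), Pilra and Cd14 Ccl9 (0.995 and 0.995), and Pnp2 and Mthfd2 Ccl17 (0.949 and 0.947). Ccl6 had the lowest best match, with Cdca8 and Dut at 0.913 and 0.910. The points share the split between libraries with and without LPS, which sets most of each correlation. Within the 18 libraries with LPS, after group means were removed, Ccl2 and Ccl7 moved together most closely (r = 0.97, and 0.98 without KO replicate 6, over 16 libraries), while Ccl22 had r between -0.13 (Ccl6) and 0.23 (Ccl12) with the 9 others, and between -0.14 and 0.41 without KO replicate 6.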

How the data were processed

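The authors trimmed paired-end reads with fastp, aligned them to mm10 with HISAT2 2.0.5 and used featureCounts 1.5.0-p3 for the gene counts (per the labels). The deposited values are raw counts of 54532 genes in 36 libraries, with a deposited gene length, and 0 count columns were left unused. Members, lists, tests and alternatives were chosen with earlier results of these data known. All 10 members are named, the other genes are named by list or by the 2 highest correlations a member, and Ccr1 and Ccr2 as receptors of these ligands were named after values were seen. Some members of the lists are not reported here.

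Each of 12 comparisons was fitted on its own groups with edgeR 4.0.16 (R 4.3.3): filterByExpr, TMM, glmQLFit and glmQLFTest, two-sided, Benjamini-Hochberg adjusted over all genes tested, passed at 0.05. Interactions were a product term over 4 groups. Intervals are 95% from the fit's standard error and degrees of freedom. CPM used TMM factors over 36 libraries, and log2 CPM a prior count of 2. Scripts were tested on simulated data.

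Whether a replicate number marks 1 animal is not stated in the sources used here, so p-values measure the spread between these libraries. Deviations of same-numbered libraries correlated at over 0.1 in every pair for LPS in KO (0.298 to 0.83), CCM in unstimulated KO (0.337 to 0.844) and CCM under LPS in WT (0.151 to 0.36). Between libraries of unlike number the median correlations in these comparisons were 0.172, 0.221 and -0.132. Libraries of a group differed beyond counting noise (chi-square per degree of freedom at least 4.08 over 72 pairs). Alternatives were DESeq2 1.42.0, RLE size factors, total counts alone, no filter, all libraries in 1 fit, a replicate block, and leaving out each WT library or KO replicate number.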

Additional observations from a re-analysis of the deposited data

Results flagged for a closer look

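Of 40 checks of a KO group for a library far from the other 5, 7 found one, where chance gives about 1 in 20 groups, and 5 of the 7 were KO replicate 6. With LPS, KO replicate 6 had 1539 CPM of Ccl4 against 597 to 779 in the others, 7631 CPM of Ccl5 against 3671 to 4516, and 206 CPM of Ccl6 against 62.7 to 112. With CCM alone it had 428 CPM of Ccl9 against at most 306 in the others and 1.32 CPM of Ccl17 against 0 to 0.228. Its neutrophil markers summed to 880 CPM with LPS against 294 to 491 in the others, and their part in these values was not tested. KO replicate 2 had 27.1 CPM of Ccl5 with vehicle against 1.59 to 9.14, and KO replicate 3 had 26.7 CPM of Ccl4 with CCM against 15.0 to 17.2. The CCM effect on Ccl3 in WT differed between LPS and no LPS, by -0.78 on the log2 scale in the interaction test, where the call was lost as described above.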

How the results depend on the processing

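No member effect that passed in the comparisons as reported changed sign under an alternative. Ccl6 with CCM under LPS in WT, which passed with the replicate block alone, was -0.02 without WT LPS replicate 1. In WT under LPS, the count of chemokines lowered by CCM was 0 with all 36 libraries in 1 fit and 6 with total counts alone. It was 8 with no filter, and 6 to 7 when 1 library was left out. Over all genes these fits passed 17 of 15720, 2272 of 13579, 2099 of 25292, and 893 to 1352 genes, against 1621 as reported. In KO under LPS it was 1 with DESeq2 (Ccl12, among 200 genes in all), 0 to 1 when a replicate number was left out, the 1 (Ccl12) without replicate 6, and 5 with the replicate block (Ccl2, Ccl3, Ccl7, Ccl12 and Ccl22, among 777 genes against 15 without it), although not all same-numbered libraries deviated together there (correlations from -0.1 to 0.81). Without LPS, the count in WT was 1 with DESeq2, with no filter and with the replicate block (Ccl2 in each, among 241, 377 and 255 genes), where correlations were 0.0511 to 0.466, and in KO it was 2 with the replicate block (Ccl2 and Ccl7, among 429 genes). The interaction of LPS and CCM in WT gave 2 with no filter (Ccl3 and Ccl4), 0 with all 36 libraries in 1 fit, and 0 to 1 when 1 library was left out. Over all genes these fits passed 721, 0 and 149 to 295 genes, against 308 as reported. The cause of these changes was not tested. Ccl5 with LPS in KO got no adjusted p from DESeq2 and is left out of its count. The replicate block changed no other count by over 1.5 times. Scaling by total counts alone moved the median of all genes with LPS from -0.05 to -0.47 in WT and to -0.44 in KO, and Ccl6 then passed in KO at -0.86. Depth limits Ccl12 and Ccl17 without LPS, which had at most 19 counts a library.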
